A study of Neurospora crassa with 34 samples.

Results

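The genes that make and remove reactive oxygen species were followed in Neurospora crassa, a filamentous fungus, through strains carrying rearranged chromosomes. The members are 4 catalase genes, 2 superoxide dismutase genes, 2 NADPH oxidase genes and the gene of their regulatory subunit, 9 of the 9730 genes in the deposited counts. They were chosen by enzyme name, with earlier results of these data already known. They are cat-1 (NCU08791), cat-2 (NCU05770), cat-3 (NCU00355), cat-4 (NCU05169), sod-1 (NCU02133), sod-2 (NCU01213), nox-1 (NCU02110), nox-2 (NCU10775) and nor-1 (NCU07850). All 9 passed the filter on low counts.

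NADPH oxidases pass electrons from NADPH to oxygen and release superoxide. Superoxide dismutases turn superoxide into hydrogen peroxide, and catalases split hydrogen peroxide into water and oxygen. In filamentous fungi these enzymes are known for their part in growth, cell fusion and the formation of asexual spores (conidia) and fruiting bodies. CAT-1 is the large-subunit catalase that accumulates in conidia, CAT-2 is a catalase-peroxidase, CAT-3 is the large-subunit catalase of growing hyphae and CAT-4 is a small-subunit catalase. SOD-1 is the copper and zinc enzyme of the cytosol and SOD-2 is a manganese enzyme of mitochondria. NOX-1 and NOX-2 are catalytic subunits, and NOR-1 is the regulatory subunit related to p67phox of animals.

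Poly(A)+ RNA was sequenced from 7 strains with rearranged chromosomes, called translocation strains here, with 2 libraries each. AR16 is mating type a with In(IL->IR), and ALS159 (T(IV->VI)), OY329 (T(VI->III)), OY337 (T(II->IV), al-2), UK2-32 (T(IVR->VL)), OY350 (T(VIL->IR)) and UK3-41 (T(VR), inl) are mating type A, as the strain list of the study gives them. A further 2 libraries came from 2 isolates of OY329 with a deletion of set-7, which encodes the H3K27 methyltransferase. Every culture was shaken in Vogel's minimal medium with 1.5% sucrose at 32 °C for 16 h and is labelled as germinated conidia. Each translocation strain is 1 isolate, so a difference between strains cannot be told apart from a difference in any other part of its background. No wild-type library was analysed here, and each fold change of a strain is against the mean of the other 6 translocation strains. The labels do not say what separated the libraries of a strain, and p-values measure the spread between those libraries. In bulk RNA, fewer cells of a type and less RNA per cell cannot be told apart.

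The libraries held 6435058 to 27994440 reads on genes. OY329 replicate 1 was the deepest, and the other 13 translocation libraries held at most 8876052. OY329 replicate 1 and both deletion libraries carry index sequences of 8 bases and the other 13 libraries of 6 bases. Reads on no gene were 10.0% in OY329 replicate 1, 26.3% in OY329 replicate 3, and 23.6% and 27.0% in the deletion isolates. Within each pair of libraries the spread exceeded counting error, at 11.1 to 181 per gene as a chi-square. The conidial markers fixed for these samples (con-6, con-8, con-10, con-13, eas, ccg-1, fl, al-1, al-2 and al-3) had reads in all 8 groups, and none was at 0 in both libraries of a strain. Summed over all 10, they were at 1426 to 2684 CPM in ALS159, 6082 to 17289 in UK3-41 and 10507 to 12427 in OY329. They were at 2999 to 7171 in AR16, 5999 to 13341 in OY337, 5625 to 6675 in OY350 and 7030 to 8309 in UK2-32. eas alone was at 5022 and 15576 CPM in UK3-41. Without eas, the sum was 1358.8 to 2525 CPM in ALS159 and 1060.4 to 1712 in UK3-41. It was 2724 to 8267 in AR16, OY337, OY350 and UK2-32, and 10229 to 12375 in OY329. CPM is a gene's reads per 1000000 reads of the TMM-scaled library size.

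**Figure D1:**
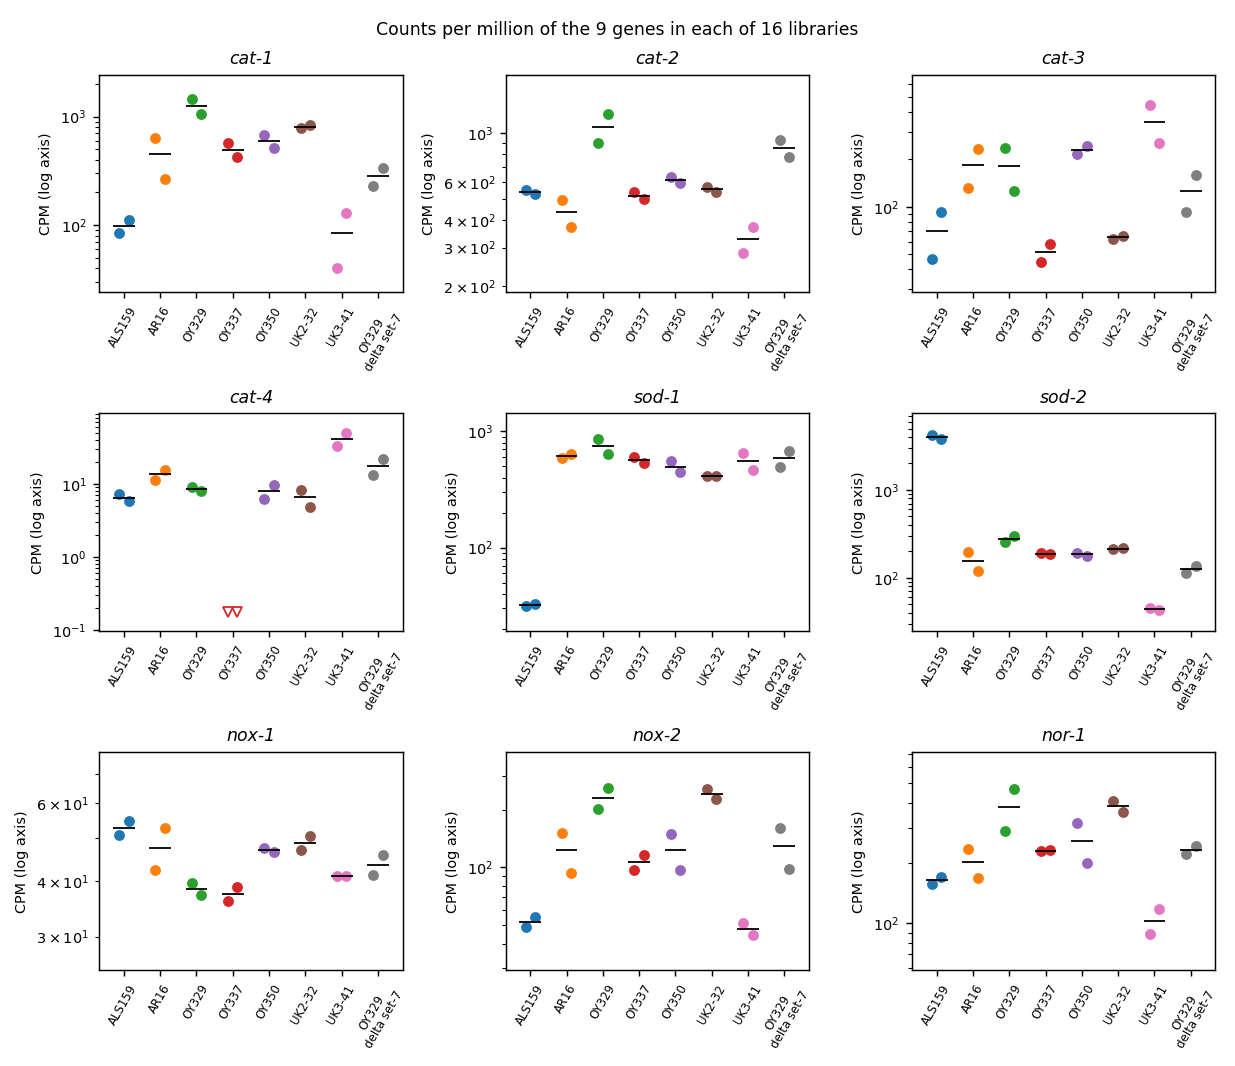
CPM on a log axis for the 9 genes (panels) in 16 libraries, with 1 point per library, a bar at the mean of each pair and the strains along the x axis. Open triangles stand for 0 reads and are drawn at the level of 3 reads over both OY337 libraries (0.177 CPM). Among the 7 strains, both libraries lie beyond all others for ALS159 in sod-1 and sod-2, for UK3-41 in cat-3, cat-4, sod-2 and nor-1, for OY329 in cat-1 and cat-2 and for OY337 in cat-4, and the nox-1 points all lie between 36.0 and 54.7 CPM.

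All 9 genes differed among the 7 strains (edgeR quasi-likelihood test, Benjamini-Hochberg adjusted p from 1.5e-07 for sod-2 to 0.042 for nox-1). This was also so for 78.5% of the 8170 genes tested. With 1 library left out, 8 or 9 passed. How far they differed was very unequal. The SD of log2 CPM over the 14 libraries was 2.26 for cat-4, 1.90 for sod-2, 1.55 for cat-1 and 1.52 for sod-1, against a median of 0.51 over all genes tested. It was 1.07 for cat-3, 0.91 for nox-2, 0.68 for nor-1 and 0.52 for cat-2. For nox-1 it was 0.19, and 4.52% of the genes tested had a smaller one.

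The catalase genes did not follow one pattern over the strains. cat-1 was read at 84.8 and 111 CPM in ALS159 and at 40.1 and 129.6 CPM in UK3-41. It was read at 632.5 and 264 CPM in AR16, 568 and 427 in OY337, 682 and 518 in OY350, 782 and 832 in UK2-32, and 1459.7 and 1068 in OY329. ALS159 and UK3-41 therefore lay below every other library, and both OY329 libraries lay above every library of the other strains. Against the other strains, cat-1 was 4.87-fold lower in ALS159 (log2 -2.28, SE 0.46, edgeR adjusted p = 0.0023) and 5.73-fold lower in UK3-41 (log2 -2.52, SE 0.46, edgeR adjusted p = 0.001). It was 4.07-fold higher in OY329 (log2 2.03, SE 0.32, edgeR adjusted p = 0.00082) and 2.41-fold higher in UK2-32 (log2 1.27, SE 0.34, edgeR adjusted p = 0.019), a call that was lost with ALS159 out of the reference (log2 0.91, edgeR adjusted p = 0.087).

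In the order of cat-1 levels, OY329, UK2-32, OY350, OY337, AR16, ALS159 and UK3-41, the only neighbours that differed were AR16 and ALS159 (log2 2.20, SE 0.52, edgeR adjusted p = 0.011). cat-1 differed in 11 of the 21 pairs of strains, where 29.8% of all combinations of a tested gene and a pair were called. The conidial markers did not follow one direction with it in every strain. In ALS159, 5 of the 10 fell (al-2, ccg-1, con-8, con-10 and eas), with con-8 at 1.81 and 3.95 CPM against 23.4 to 1813 in the other strains, and 25.6% of all genes tested fell there. In UK3-41, 4 fell (al-1, al-2, ccg-1 and con-8) and 3 rose (con-13, eas and fl), where 26.5% of all genes fell and 29.8% rose. In OY329 6 rose, where 26.2% of all genes did. In UK2-32 4 rose (al-2, ccg-1, con-8 and con-10) and eas fell, where 17.5% and 12.6% of all genes did. In OY337, where cat-1 was not called, 3 rose (con-8, con-13 and eas), and 8.24% of all genes did. In AR16 and OY350, where cat-1 was not called either, 1 rose in each, and 6.27% and 3.84% of all genes did. The part of spore-forming cells in the cat-1 values was not tested.

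cat-2 varied less. Its libraries were at 904 and 1230.4 CPM in OY329, at 282 and 375 in UK3-41, and between 372 and 633 in the other 5 strains. The OY329 libraries were above all others. cat-2 was 2.19-fold higher in OY329 (log2 1.13, SE 0.14, edgeR adjusted p = 0.00032) and 1.81-fold lower in UK3-41 (log2 -0.85, SE 0.17, edgeR adjusted p = 0.0016), and it did not pass the test in the other 5 strains. Down the order OY329, OY350, UK2-32, ALS159, OY337, AR16 and UK3-41, only the step from OY329 to OY350 was called (log2 0.80, SE 0.21, edgeR adjusted p = 0.03).

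cat-3 was highest in UK3-41, where mean cat-1 was lowest, but it was low in ALS159, where cat-1 was also low. Over the 14 libraries, log2 levels of cat-3 and cat-1 had a Pearson r of -0.20. cat-3 stood at 440.4 and 255 CPM in UK3-41, above every other library. It was at 216 and 242 in OY350, 132 and 234 in AR16, and 237 and 125 in OY329. In the other strains it was at 46.6 and 93.0 (ALS159), 62.6 and 64.9 (UK2-32) and 44.8 and 58.1 CPM (OY337). The 7 strains thus fell into 4 with higher and 3 with lower cat-3, and the step between these sets, from OY329 to ALS159, was the only called one in the order (log2 1.38, SE 0.41, edgeR adjusted p = 0.014). The fold changes against the other strains were 3.17-fold higher in UK3-41 (log2 1.67, SE 0.27, edgeR adjusted p = 0.00049) and 2.93-fold lower in OY337 (log2 -1.55, SE 0.35, edgeR adjusted p = 0.02). They were 2.28-fold lower in UK2-32 (log2 -1.19, SE 0.34, edgeR adjusted p = 0.026) and 2.06-fold lower in ALS159 (log2 -1.04, SE 0.34, edgeR adjusted p = 0.025). Without ALS159 replicate 1 the fall in ALS159 was -0.62 on the log2 scale and did not pass (edgeR adjusted p = 0.28), and without OY329 replicate 3 a rise in OY329 did (log2 0.99, edgeR adjusted p = 0.042).

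cat-4 had no read in either OY337 library. Its counts were 348 and 503 in UK3-41 and 33 to 236 in the libraries of the other 5 strains. In CPM these were 32.5 and 49.5 in UK3-41, 11.4 and 15.4 in AR16, 8.99 and 7.97 in OY329, 6.27 and 9.72 in OY350, 8.19 and 4.86 in UK2-32, and 7.14 and 5.80 in ALS159. OY337 lay below and UK3-41 above all the rest. With 3 reads over the pair as the limit that 0 reads allow (0.177 CPM), cat-4 was at least 36.6-fold higher in ALS159 and at least 232-fold higher in UK3-41 than in OY337, and at least 79.0-fold higher in the mean of the other 6 strains. These bounds cover counting error only.

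Since OY337 is part of the reference of every other strain, the cat-4 contrasts depended on it. With OY337 left out of the reference, cat-4 was 4.95-fold higher in UK3-41 (log2 2.31, SE 0.21, edgeR adjusted p = 2.4e-05) in place of 14.5-fold (log2 3.86, SE 0.25, edgeR adjusted p = 2.8e-06). The calls of a higher level in AR16 (log2 1.98) and OY329 (log2 1.22) were then lost, at log2 0.37 and -0.40 (edgeR adjusted p = 0.4 and 0.22). ALS159 and UK2-32 became lower, at log2 -0.88 and -0.87 (edgeR adjusted p = 0.024 and 0.038). The pairwise tests do not use a reference, and there UK3-41 was above AR16 (log2 1.61, SE 0.32, edgeR adjusted p = 0.0046), while AR16, OY329, OY350, UK2-32 and ALS159 followed each other without a called step.

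cat-4 lies near the right end of linkage group IV, and it was not alone in having no reads in OY337. By the genetic mapping that the paper lists, OY337 carries a segment of linkage group II joined to the tip of this arm. The paper did not detect the breakpoints of OY337 by sequencing. Whether the genes at the end of the arm are still present in OY337 was not tested. Counting outward, NCU05180 was the last gene of this arm with reads in OY337, with 172 and 162. Beyond it lie 28 annotated genes, cat-4 among them, with 9 genes between NCU05180 and cat-4 and 18 further out. All 28 were at 0 in both OY337 libraries, whereas 26 had a read in another library and 21 had at least 10 reads in one. The neighbour on the inner side, NCU05170, had 17 to 239 reads in the other 14 libraries, and pmb (NCU05168) on the outer side had 87 to 3031. Of the 15 genes on each side of cat-4, 21 were tested, and 15 of them were lower and 2 higher in OY337, where 2.74% and 8.24% of all genes were.

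**Figure D2:**
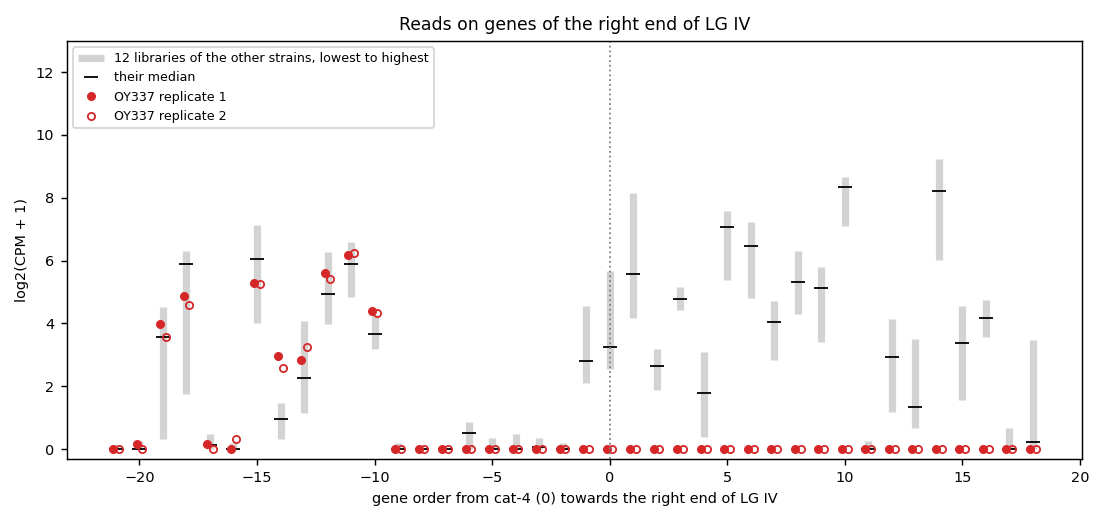
log2(CPM + 1) of the genes around cat-4 in their order along the right end of linkage group IV (x axis, cat-4 at 0), with grey bars from the lowest to the highest of the 12 libraries of the other strains, black ticks at their median and red points for the 2 OY337 libraries. The outermost gene with OY337 reads is NCU05180, 10 genes inward of cat-4, and the OY337 points are at 0 for the 28 genes beyond it.

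The nearest neighbours of cat-4 were also read in UK3-41, the strain with the highest cat-4. NCU05170 was at 22.3 and 21.4 CPM there, with a median of 5.93 over the 12 libraries of the strains other than OY337, and pmb was at 283 and 184 CPM with a median of 46.9. Further out, NCU16902 was at 5.23 and 2.66 CPM in UK3-41 with a median of 5.32, and NCU16903 at 26.3 and 24.2 with 26.7. Genes beyond these lay on both sides of their median. NCU05160 was lower in UK3-41, at 139 and 137 CPM with a median of 326, and so was NCU10040, at 105 and 63.2 with 298. NCU05164 was higher, at 148 and 138 CPM with a median of 87.6. Of the 21 neighbours tested, 11 were called higher and 2 lower in UK3-41, where 29.8% and 26.5% of all genes were. By the same contrast 13 were higher and 2 lower in ALS159 (26% and 25.6% of all genes), and 15 higher in UK2-32 (17.5%). In AR16, OY329 and OY350, 11, 14 and 10 were higher (6.27%, 26.2% and 3.84% of all genes) and 0, 2 and 1 lower. All these contrasts hold the 0 reads of OY337 in the reference, which moves the neighbours at 0 there towards a higher call in every other strain. No count without OY337 is given here.

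Compared per length, the catalase genes took different shares in different strains. Levels between genes are given as CPM per kb of the RefSeq gene (NC12), and the annotation behind the counts is not given in the sources used here. cat-1 and cat-2 together held most of the catalase signal in AR16, OY329, OY337, OY350 and UK2-32, with cat-1 at 30.8% to 58.2% and cat-2 at 34.6% to 50.6% of the summed CPM per kb. In ALS159, cat-2 held 80.2% and 72.2% and cat-1 12.5% and 15.3%. In UK3-41, cat-3 held 53.5% and 29.9%, cat-2 37.1% and 47.5%, cat-1 5.34% and 16.6%, and cat-4 4.08% and 5.999%, so that cat-3 was first in replicate 1 and cat-2 in replicate 2. The summed catalase level was lowest in the same 2 strains, at 231 and 247 CPM per kb in ALS159 and 257 and 266 in UK3-41, and highest in OY329 at 879 and 820.4.

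**Figure D3:**
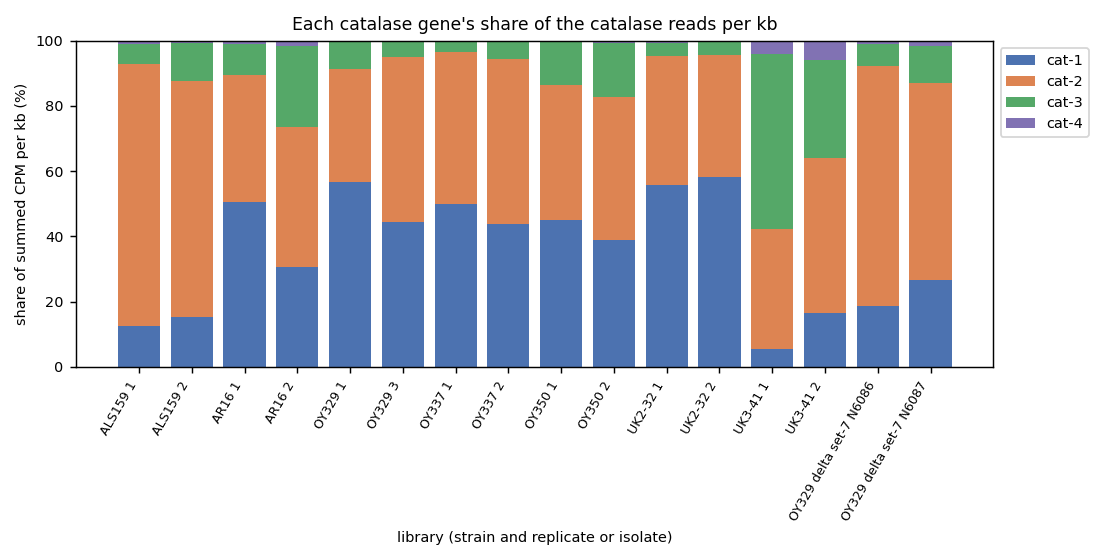
Share of each of the 4 catalase genes in the summed catalase CPM per kb of gene (y axis, percent, bars from 0 to 100) in each of 16 libraries. cat-1 and cat-2 fill most of the bar in most strains, cat-2 alone reaches 80.2% in ALS159, and cat-3 takes 53.5% and 29.9% in the 2 UK3-41 libraries.

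The superoxide dismutase genes changed places in ALS159. sod-2 was at 4224 and 3818 CPM in ALS159, at 44.8 and 43.3 CPM in UK3-41, and between 119 and 298 in the 10 libraries of the other 5 strains. Neither pair overlapped any other library. sod-2 was 25.8-fold higher in ALS159 than in the other strains (log2 4.69, SE 0.13, edgeR adjusted p = 1.8e-09), and this was the largest change of a member with reads in both groups. In UK3-41 it was 7.49-fold lower (log2 -2.90, SE 0.21, edgeR adjusted p = 2.5e-06), and 4.54-fold lower with ALS159 out of the reference (log2 -2.18, SE 0.20, edgeR adjusted p = 1.2e-05).

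sod-1 went the other way in ALS159. It was at 31.5 and 32.6 CPM there, and between 411 and 866 CPM in the 12 libraries of the other strains, with no overlap. That is 17.5-fold lower (log2 -4.13, SE 0.22, edgeR adjusted p = 4.1e-07). Reads of the 2 replicates of ALS159 numbered 296 and 264 for sod-1 and 39634 and 30915 for sod-2.

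Because ALS159 is part of the reference of the other strains, their sod-1 and sod-2 contrasts were recomputed without it, an alternative chosen after the data were seen. The calls of a higher sod-1 in AR16 (log2 0.85), OY337 (log2 0.72) and UK3-41 (log2 0.70) were then lost, at log2 0.17, 0.03 and 0.01 (edgeR adjusted p = 0.53, 0.94 and 0.97). The call in UK3-41 was also lost without UK3-41 replicate 1 (log2 0.43, edgeR adjusted p = 0.1). Higher sod-1 in OY329 was kept at a smaller size, log2 0.52 (SE 0.15, edgeR adjusted p = 0.021) in place of 1.19. The lower sod-2 in AR16 (log2 -0.77) was lost at log2 0.02 (edgeR adjusted p = 0.98), and sod-2 in OY329 was then higher at log2 0.99 (SE 0.15, edgeR adjusted p = 0.0011). UK2-32 became higher in sod-2 and lower in sod-1, at log2 0.56 and -0.53 (edgeR adjusted p = 0.031 and 0.043). Among the pairs of strains without ALS159, sod-1 differed only between OY329 and UK2-32 (log2 0.87, SE 0.21, edgeR adjusted p = 0.023).

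Per length, sod-1 exceeded sod-2 by 3.83- to 29.2-fold in the 12 libraries of the other 6 strains. In ALS159, sod-2 exceeded sod-1 by 67.2- and 58.8-fold. The sum of both was 1367.8 and 1239 CPM per kb in ALS159 and 311 to 631 in the other libraries. Over the 10 libraries without ALS159 and UK3-41, log2 levels of the 2 genes had a Pearson r of 0.15 and a Spearman rho of 0.19, given as a description.

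**Figure D4:**
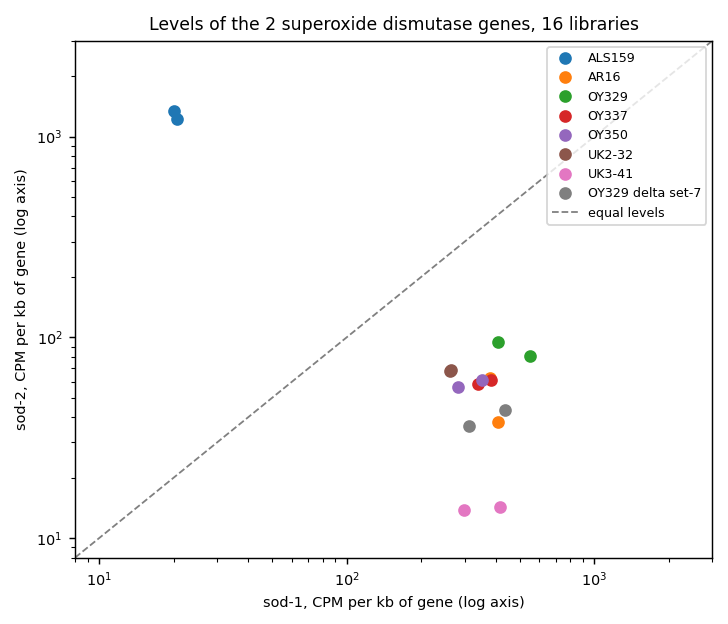
sod-2 against sod-1 in CPM per kb of gene, both axes logarithmic, with 1 point per library, 16 in all, coloured by strain, and a dashed line at equal levels. The 2 ALS159 libraries lie above the line, with sod-2 67.2 and 58.8 times sod-1, all other libraries lie below it, and the UK3-41 libraries are the lowest in sod-2.

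The NADPH oxidase genes split. nox-1 was the steadiest member, at 50.8 and 54.7 CPM in ALS159, 47.1 and 50.5 in UK2-32, 42.4 and 52.8 in AR16, 47.6 and 46.7 in OY350, 41.1 and 41.0 in UK3-41, 39.7 and 37.3 in OY329, and 36.0 and 38.9 in OY337. No neighbours in this order differed, and 2 of the 21 pairs were called, ALS159 against OY329 (log2 0.45, SE 0.14, edgeR adjusted p = 0.016) and ALS159 against OY337 (log2 0.49, SE 0.14, edgeR adjusted p = 0.016). Its highest and lowest strain means were 1.41-fold apart. The higher level in ALS159 than in the other strains was 1.22-fold (log2 0.29, SE 0.10, edgeR adjusted p = 0.038), and it did not pass when any of 10 of the 14 libraries was left out, with an adjusted p of up to 0.24.

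nox-2 was at 257 and 227 CPM in UK2-32 and 202 and 261 in OY329, and at 49.1 and 55.1 in ALS159 and 50.98 and 44.5 in UK3-41. AR16 (152 and 94.0), OY350 (149 and 96.5) and OY337 (96.7 and 116) lay between and did not overlap either set. Both steps between these 3 levels were called, OY329 to AR16 (log2 0.91, SE 0.26, edgeR adjusted p = 0.022) and OY337 to ALS159 (log2 1.03, SE 0.26, edgeR adjusted p = 0.011). The levels were read off the same values, so these calls are no separate support for them. Across the upper step, OY350 against UK2-32 was not called (log2 -0.98, SE 0.26, edgeR adjusted p = 0.052). nox-2 differed in 15 of the 21 pairs, more than any other member. Against the other strains it was 2.46-fold higher in UK2-32 (log2 1.30, SE 0.18, edgeR adjusted p = 0.00094) and 2.33-fold higher in OY329 (log2 1.22, SE 0.18, edgeR adjusted p = 0.00054). It was 2.45-fold lower in ALS159 (log2 -1.29, SE 0.22, edgeR adjusted p = 0.001) and 2.70-fold lower in UK3-41 (log2 -1.44, SE 0.22, edgeR adjusted p = 0.00036). Per length, nox-1 was at 0.143 to 0.562 of nox-2 in 5 strains, at 0.994 to 1.04 in ALS159 and at 0.806 to 0.923 in UK3-41.

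nor-1 followed nox-2 more than nox-1. Its libraries were at 410.2 and 362 CPM in UK2-32 and 291 and 469.7 in OY329, at 157 to 315 in OY350, OY337, AR16 and ALS159, and at 89.0 and 118 in UK3-41. The UK3-41 libraries were below all others. nor-1 was 1.87-fold higher in UK2-32 (log2 0.90, SE 0.20, edgeR adjusted p = 0.0078), 1.84-fold higher in OY329 (log2 0.88, SE 0.20, edgeR adjusted p = 0.0047) and 2.48-fold lower in UK3-41 (log2 -1.31, SE 0.24, edgeR adjusted p = 0.00091). Without OY329 replicate 3 the rise in OY329 was log2 0.52 and did not pass (edgeR adjusted p = 0.1). No step between neighbours in its order was called, and 9 of the 21 pairs were.

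Over the 14 libraries, log2 levels of nox-2 and nor-1 had a Pearson r of 0.93 and a Spearman rho of 0.97. Those of cat-1 and nox-2 had 0.91 and 0.92, and those of cat-1 and nor-1 0.89 and 0.92. Without the 4 libraries of ALS159 and UK3-41 the Pearson r was 0.93, 0.79 and 0.76 in that order over 10 libraries. These are descriptions, since the points share strains and libraries. The genes most like each member were also listed, among the 7005 tested genes that averaged 5 CPM or more. For cat-1 they were NCU07349 (r = 0.99), NCU04669 (r = 0.99) and NCU01107 (r = 0.98), and for nox-2 NCU06207 (r = 0.98), NCU04675 (r = 0.97) and NCU11109 (r = 0.97). For nor-1 they were NCU06957 (r = 0.98), NCU05550 (r = 0.98) and NCU03222 (r = 0.97).

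sod-2 was most like NCU08193 (r = 0.99), acr-2 (NCU05733, r = 0.98) and NCU08194 (r = 0.97). sod-1 was most like NCU08748 (r = 0.98), NCU08232 (r = 0.97) and NCU16917 (r = 0.97). These values include the ALS159 libraries, far outside the others in both genes, and were not recomputed without them. Between sod-1 and sod-2 themselves, Pearson r was -0.88 over 14 libraries and 0.15 without ALS159 and UK3-41. For cat-4 the 3 were all its neighbours on linkage group IV, NCU05170 (r = 0.96), NCU05165 (r = 0.95) and pmb (r = 0.95). Without the OY337 libraries they were NCU06505 (r = 0.96), NCU16890 (r = 0.96) and NCU04630 (r = 0.96), over 12 libraries. cat-3 was most like hH4-2 (NCU00212, a histone H4 gene by its symbol, r = 0.93), NCU08195 (r = 0.92) and ad-4 (NCU06187, r = 0.90), cat-2 like NCU02420 (r = 0.94), NCU02409 (r = 0.91) and rho-3 (NCU00600, r = 0.90), and nox-1 like NCU03085, NCU02429 and NCU02385 (r = 0.88, 0.87 and 0.86).

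Read by strain, UK3-41 differed from the others in 8 of the 9 members, 3 higher (cat-3, cat-4 and sod-1) and 5 lower (cat-1, cat-2, nor-1, nox-2 and sod-2), and 56.3% of the 8170 genes tested were called there, 29.8% higher and 26.5% lower. ALS159 differed in 6, 2 higher (sod-2 and nox-1) and 4 lower (sod-1, cat-1, nox-2 and cat-3), with 51.6% of all genes called, 26% higher and 25.6% lower. OY329 differed in 6, all higher (cat-1, sod-1, cat-4, nox-2, cat-2 and nor-1), with 47.8% of all genes called, 26.2% higher and 21.6% lower. Some of these calls rest on the reference. Without ALS159 in it, sod-1 in UK3-41 was at log2 0.01 (edgeR adjusted p = 0.97). sod-2 in OY329 then passed at log2 0.99 (edgeR adjusted p = 0.0011). Without OY337 in it, nox-1 in ALS159 was at log2 0.25 and cat-4 in OY329 at -0.40 (edgeR adjusted p = 0.072 and 0.22). cat-4 in ALS159 and nox-1 in OY329 then passed as lower (log2 -0.88 and -0.29, edgeR adjusted p = 0.024 and 0.045). The median log2 change of the 9 members in OY329 was 1.13, and that of all genes tested was 0.04. Without OY329 replicate 1, the deep library, the rise of cat-4 was log2 1.08 and did not pass (edgeR adjusted p = 0.094).

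UK2-32 differed in 4 members (cat-1, nox-2 and nor-1 higher, cat-3 lower), where 30.2% of all genes were called, 17.5% higher and 12.6% lower. Without either UK2-32 library only nox-2 was called. AR16 differed in 3 (cat-4 and sod-1 higher, sod-2 lower) with 9.34% of all genes called (6.27% higher, 3.07% lower). OY337 differed in 3 (sod-1 higher, cat-3 and cat-4 lower) with 11% called. Without ALS159 in the reference, sod-1 and sod-2 in AR16, sod-1 in OY337 and cat-1 in UK2-32 did not pass. Without OY337 in it, cat-4 in AR16 did not pass. Without AR16 replicate 2 none of the 3 was called in AR16 (log2 1.74, 0.80 and -0.45, edgeR adjusted p = 0.066, 0.073 and 0.19). Without either OY337 library only cat-4 was called in OY337, where sod-1 and cat-3 had edgeR adjusted p of 0.097 to 0.25. In OY350 edgeR called 0 of the 9 members, 4 of which had an unadjusted p under 0.05, and 4.92% of all genes (3.84% higher, 1.08% lower). There DESeq2 called 2, cat-3 (log2 0.96, adjusted p = 0.038) and sod-1 (log2 0.49, adjusted p = 0.044). Without OY329 replicate 1 edgeR called the same 2 (log2 1.05 and 0.53, edgeR adjusted p = 0.033 and 0.036), and without AR16 replicate 2 it called sod-2 lower (log2 -0.55, edgeR adjusted p = 0.029). sod-2 was also called lower in OY337 without either AR16 library (log2 -0.39 and -0.51, edgeR adjusted p = 0.042 and 0.022). The directions of sod-1 and sod-2 here rest on ALS159 being in the reference. Without it sod-2 was at log2 0.29 in OY350 and 0.33 in OY337, and sod-1 at log2 -0.20 in OY350 (edgeR adjusted p = 0.35, 0.25 and 0.54). cat-3 in OY350 kept its direction without ALS159 in the reference (log2 0.81, edgeR adjusted p = 0.17).

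**Figure D5:**
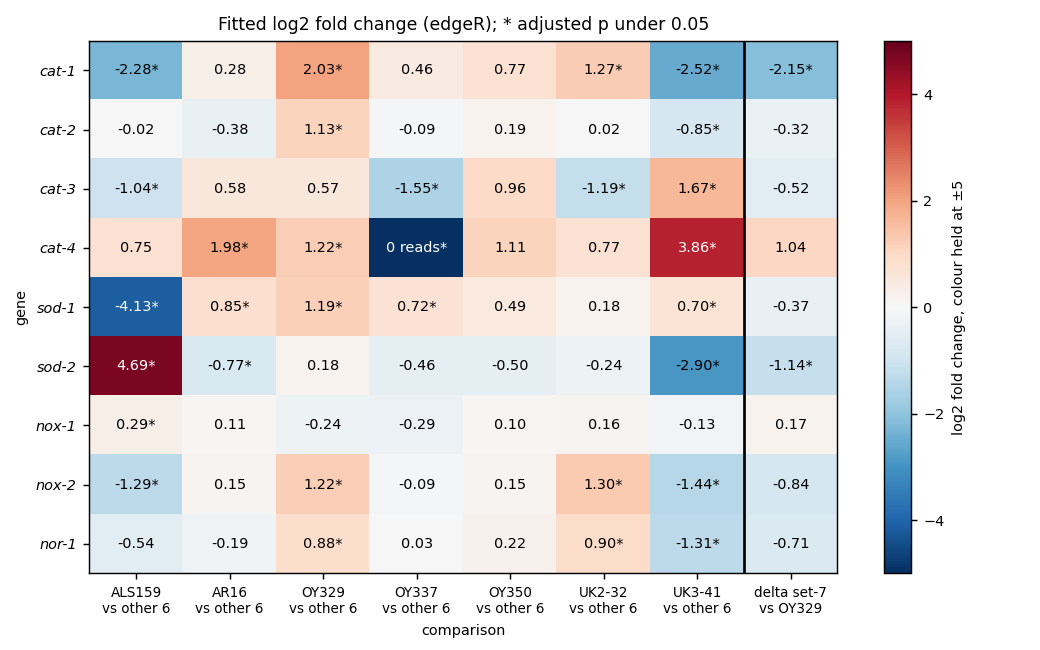
Fitted log2 fold changes (edgeR) of the 9 genes (rows) in each strain against the other 6 strains and, right of the line, in OY329 with the set-7 deletion against OY329 (columns), with an asterisk for an adjusted p under 0.05 and the colour held at 5 in both directions. cat-4 in OY337 had 0 reads, so its fitted value is not shown. UK3-41 has 8 asterisks, ALS159 and OY329 6 each, and OY350 none.

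The isolates without set-7 were set against OY329 in a fit on all 16 libraries. The reads on set-7 (NCU07496) were 40 and 16 in the libraries labelled with its deletion, or 3.47 and 2.00 CPM, and 9.72 and 9.52 CPM in OY329. It was lower but not at 0 (log2 -1.79, SE 0.26, edgeR adjusted p = 0.0036), and where in the gene those reads lie cannot be seen in counts per gene. Of the 9 members 2 were called, both lower, and 7.54% of the 8223 genes tested were called, 2.7% lower.

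cat-1 was at 232 and 339 CPM in the deletion isolates and 1459.7 and 1068 CPM in OY329, without overlap, 4.43-fold lower (log2 -2.15, SE 0.51, edgeR adjusted p = 0.028). sod-2 was at 114 and 136 against 253 and 298 CPM, also without overlap, 2.20-fold lower (log2 -1.14, SE 0.23, edgeR adjusted p = 0.013). OY329 replicate 1 shares its index length with the deletion isolates while OY329 replicate 3 is nearer to them in reads on no gene, and the part of either in these values was not tested. Both genes kept their size in a fit on these 4 libraries alone but did not pass (log2 -2.18 and -1.18, edgeR adjusted p = 0.17 and 0.27). cat-1 also did not pass without OY329 replicate 1 (log2 -1.90, edgeR adjusted p = 0.085) or without either deletion isolate (edgeR adjusted p = 0.095 and 0.056), and nox-2 passed only without isolate N6086 (log2 -1.24, edgeR adjusted p = 0.042). Of the 10 conidial markers 1, al-2, was called and fell, where 2.7% of all genes tested did. The summed level of the markers was 4194 and 6969 CPM in the deletion isolates, and 3558 and 6627 without eas. Its part in the cat-1 value was not tested.

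The other 7 members did not pass. cat-4 was at 13.3 and 22.1 CPM against 8.99 and 7.97 in OY329 (log2 1.04, SE 0.35, edgeR adjusted p = 0.098), cat-2 at 929 and 782 against 904 and 1230.4 CPM, and cat-3 at 93.1 and 160.0 against 237 and 125. sod-1 was at 490.3 and 684 CPM against 866 and 645, and nox-1 at 41.3 and 45.8 against 39.7 and 37.3. nox-2 was at 160.3 and 97.5 CPM against 202 and 261 (log2 -0.84, edgeR adjusted p = 0.098), and nor-1 at 222 and 243 against 291 and 469.7 (log2 -0.71, edgeR adjusted p = 0.13). Of the 30 neighbours of cat-4, 24 were tested in this comparison, and 9 were called, all higher, where 4.84% of all genes were higher. On the 14 libraries of the translocation strains 21 passed the filter on low counts. Some of the 24 therefore passed only with the deletion libraries added, and a high level there can be what let them in. How many of the 9 are such genes is not given here.

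None of the 9 members is among the 435 genes in the deposited table of genes with gained or lost H3K27me2/3 in the translocation strains. That table lists altered genes only, and H3K27me2/3 at the members was not analysed here.

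The list of NADPH oxidase partners and of the response to oxidative stress held rac-1 (NCU02160) and cdc42 (NCU06454), small GTPases, cdc24 (NCU06067), their exchange factor, os-4 (NCU03071), os-5 (NCU00587) and os-2 (NCU07024), the kinases of the osmotic stress cascade, and asl-1 (NCU01345), a bZIP factor. Among the strains 2 of these 7 differed, os-2 (edgeR adjusted p = 0.0019) and os-5 (edgeR adjusted p = 0.0079), where 78.5% of all genes tested did. UK3-41 had the most calls, 6 of 7, where 56.3% of all genes were called, with os-4 (log2 -0.92), asl-1 (-0.59), cdc42 (-0.44), cdc24 (-0.40) and os-5 (-0.38) lower and os-2 (0.49) higher. In ALS159 os-5 was higher and os-2 lower, where 51.6% of all genes were called. In OY329 and UK2-32 only os-2 was called, lower in both, where 47.8% and 30.2% of all genes were called. The list of other peroxide-removing enzymes matched only trx (NCU05731), thioredoxin by its symbol, and its part in peroxide removal was not tested. trx was at 48.2 and 50.6 CPM in ALS159, 58.5 and 57.7 in OY329 and 30.1 and 29.1 in UK3-41. It was called higher in ALS159 and OY329 (log2 0.26 and 0.54) and lower in UK3-41 (log2 -0.60).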

How the data were processed

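Poly(A)+ RNA libraries of 7 translocation strains (2 each) and of 2 isolates of OY329 with the set-7 deletion were analysed. The authors deposited raw counts, 1 whole number of reads for each gene and library. The 5 rows that name no gene stayed out of library sizes and held 5.61% to 27.0% of the reads. The submitters' processing notes name TopHat, SAMtools, HTSeq and DESeq. The genome build, annotation and strand setting are not given in the sources used here. The deposited table of H3K27me2/3 changes gave only the names of the genes the authors listed. Its fold changes, p-values and 1 column of values per sample were not used, nor were the breakpoint calls.

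The 9 members and all gene lists were chosen with earlier results of these data known. Of 9730 identifiers 9729 matched RefSeq (NC12), used for symbols, gene order and gene length. Its table holds no product names, so the list of other peroxide-removing enzymes matched 1 gene. Counts were filtered with filterByExpr by strain (8170 genes in 14 libraries, 8223 in 16), scaled by TMM and tested with edgeR 4.0.16 (quasi-likelihood, R 4.3.3), with a Benjamini-Hochberg adjusted p under 0.05 over all genes tested. Strains were tested on 14 libraries and the deletion on 16. The SE is the log2 change divided by the square root of F. log2 CPM uses a prior count of 2. The tests were checked on simulated counts. Named genes were all members, genes of the NADPH oxidase partner and peroxide-removing lists called in at least 5 of 7 strains (none), the most abundant of the peroxide-removing list, the nearest neighbours of cat-4, and for each member the 3 genes of highest Pearson r. Further neighbours and list genes were named after their values were seen. Alternatives were DESeq2 1.42.0, limma-trend (limma 3.58.1), RLE or no scaling, other filters, a replicate block, other references and each library left out.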

Additional observations from a re-analysis of the deposited data

How the results depend on the processing

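Of the 32 combinations of a member and a comparison that passed, 17 passed under every alternative run, and 25 of the 40 that did not pass stayed so. Of 1747 values of single members under the 28 alternatives, 1678 stayed on their side of the threshold, 40 lost the call and 23 gained one. A further 6 reversed direction with a call before or after. Values that changed direction without any call are counted among the 1678. One such value was cat-4 in OY350, at log2 1.11 and, without OY337 in the reference, at -0.52. Leaving OY337 out of the reference reversed cat-4 in ALS159 (log2 -0.88), OY329 (log2 -0.40) and UK2-32 (log2 -0.87). Leaving ALS159 out reversed sod-2 in AR16 (log2 0.016) and UK2-32 (log2 0.56) and sod-1 in UK2-32 (log2 -0.53). With ALS159 left out 1 member differed in AR16. In OY350, where edgeR called 0 members (4 had an unadjusted p under 0.05), DESeq2 called 2, the fit without OY329 2 and the reference without OY337 1. In the fit of only the 4 libraries of the set-7 comparison 0 were called. With 1 library left out, the members called ranged from 0 to 3 in AR16, 1 to 4 in OY337, 0 to 2 in OY350, 1 to 4 in UK2-32 and 1 to 2 for the set-7 deletion. trx, the 1 gene of its list, was called in ALS159 with the filter and not (0) without it. The count of 90 called combinations of a member and a pair of strains stayed between 75 and 94 with 1 library left out, and within 1.5 times under DESeq2, RLE and no filter. With 10 reads required in every library cat-4 could not be tested. Library totals alone moved the median of all genes by up to 0.32 (log2, UK3-41). In pairs of strains, the deviations of same-numbered replicates from their strain means correlated at -0.26 to 0.39, over 0.1 in 3 of 15. The numbers were not taken to pair the libraries, and a batch shared by some strains was not tested. With the replicate block, the count of members called kept within 1.5 times in all 7 strains, cat-3 in OY329 passed (log2 1.10) and nor-1 there did not (log2 0.43). The only library numbered 3 belongs to OY329, so the block leaves OY329 to replicate 1. The deletion isolates carry no replicate number and could not be fitted with the block.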

Other observations

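Genes of copper handling and of the alternative oxidase were looked up after the sod-1 and sod-2 values in ALS159 had been seen, so these are values and not a test of anything fixed earlier. tcu-1 (NCU00830), a copper transporter by its symbol, was at 2558 and 2889 CPM in ALS159 and at 8.22 to 41.5 CPM in the 12 libraries of the other strains (log2 7.21, SE 0.19, edgeR adjusted p = 1.2e-09). tcu-3 (NCU07428), of the same family, was at 339 and 297 CPM against 10.7 to 21.8, and tcu-2 (NCU03281) at 278 and 279 CPM against 34.0 to 197. The copper metallothionein gene cmt (NCU05561) was at 781 and 924 CPM, within the 495 to 1495 of the other strains. The laccase gene lacc (NCU04528), which encodes a multicopper oxidase, was at 3.41 and 3.95 CPM in ALS159, below the 7.78 to 79.9 of the others. Of 2 zinc transporter genes by symbol, tzn-1 was at 5.44 and 7.04 CPM against 5.03 to 19.4, and tzn-2 at 19.4 and 20.5 against 10.8 to 18.4.

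aod-1 (NCU07953), the alternative oxidase of mitochondria, which takes electrons before cytochrome c oxidase, was at 1747 and 1867 CPM in ALS159 and at 39.1 to 451 in the other strains (log2 3.98, SE 0.16, edgeR adjusted p = 3.8e-08). The next highest were UK3-41 at 451 and 296 CPM and OY337 at 248 and 188. For tcu-1, tcu-2, tcu-3 and aod-1 no library of another strain reached ALS159.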
